A study of Mus musculus with 12 samples.

Results

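RNA from the prostate of TRAMP mice was compared with that of wild type mice at 16 weeks of age. TRAMP (transgenic adenocarcinoma of the mouse prostate) animals carry the SV40 T antigens under the probasin promoter, so that the transgene is active mainly in androgen-dependent prostate epithelium and its level follows androgen signalling. Both TRAMP libraries (strain C57BL/6-Tg(TRAMP)8247Ng/J, replicates 0 and 1) and the single wild type library (C57BL/6, replicate 0) came from snap-frozen ventral and dorsolateral prostate of animals on the AIN93M control diet. They are 3 of the 12 libraries of a study of dietary phenethyl isothiocyanate, and none of the 3 received that compound. The 3 libraries were chosen by their labels alone. The remaining libraries include TRAMP prostate of 16 and 24 weeks on a diet with 0.05% (w/w) of the compound, and a TRAMP tumor of 24 weeks. Libraries of animals fed the compound contribute to the pooled estimate of spread used below. They and the tumor also enter the mean levels over all 12 libraries and the rule for genes high in 1 library. Of all genes, 13375 of the 24421 in the tables, those with a mean of at least 0.5 FPKM (fragment counts scaled to gene length and to the library's mapped total) over the 12 libraries, were tested. The 2 wild type libraries of 24 weeks, also C57BL/6 on control diet, served as an alternative control, and the 2 TRAMP libraries of 24 weeks on control diet were used for the later age. The labels do not say whether replicates are separate animals, so the p-values speak of variation among the sequenced samples, some of which may be technical.

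SV40 large T antigen binds the retinoblastoma family of pocket proteins and p53. Pocket proteins hold the E2F transcription factors in check, and free E2F switches on the genes that license, start and carry out DNA replication, whereas other complexes with the same pocket proteins hold back the genes of mitosis. The normal mouse prostate is a secretory gland of luminal cells on a layer of basal cells, wrapped in smooth muscle, and its luminal cells make large amounts of a few androgen-dependent secreted proteins, among them spermine-binding protein, probasin and beta-microseminoprotein.

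All 3 libraries held the defining transcripts of the ventral and dorsolateral lobes. Spermine-binding protein (Sbp), the most abundant transcript of each of them, was measured at 3599 and 3931 FPKM in the TRAMP libraries and 16412 FPKM in wild type, and beta-microseminoprotein (Msmb) at 1231 and 1053 FPKM in the TRAMP libraries and 2042 FPKM in wild type. The relative depth of the libraries, read from the smallest step between FPKM values and set to 1 in the deepest library, was 0.927 and 0.895 for TRAMP and 0.636 for wild type, the lowest of the 12. Per gene levels correlated across genes (Pearson's r of log2(FPKM + 1), genes being no independent replicates) at 0.989 between the TRAMP libraries, at 0.936 and 0.938 between them and the wild type library, and at 0.979 between the wild type library and each wild type library of 24 weeks. The summed FPKM was 410802 and 408574 in TRAMP and 467650 in wild type.

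The wild type library of 16 weeks stood apart from the other 11 in a set of transcripts of accessory sex glands. Svs2, a seminal vesicle secretory protein, reached 3095 FPKM in it, against 0 and 0.111 FPKM in the TRAMP libraries and 1.96 and 3.04 FPKM in the wild type libraries of 24 weeks. Svs5, of the same family, was at 2945 FPKM and Pate4, a small secreted protein of the seminal vesicle, at 1334 FPKM, with at most 0.9305 and 0.0344 FPKM in the TRAMP libraries. Genes were marked as high only in this library where they had at least 5 FPKM there and at least 4 times the level of the highest of the other 11 libraries, and 31 genes met this rule. They held 2.08% of the summed FPKM of the wild type library and 0.00606% to 0.0238% of that of each other library. The 12 most abundant of them were Svs2, Svs5, Pate4, 9530053A07Rik at 621 FPKM, the coagulating-gland transglutaminase Tgm4 at 468, Svs4 at 372, the cysteine dioxygenase Cdo1 at 267, C1rb at 67.8, the urokinase Plau at 57.2, the glycolytic regulator Pfkfb3 at 56.7, 9530003J23Rik at 56.6 and Svs6 at 54.98 FPKM in the wild type library. Of the 31, 8 lie on chromosome 2, which carries the Svs genes (Svs2 at 164235929 to 164238466 and Svs5 at 164332740 to 164334396, GRCm38), and 5 lie on chromosome 9, which carries Pate4.

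**Figure D1:**
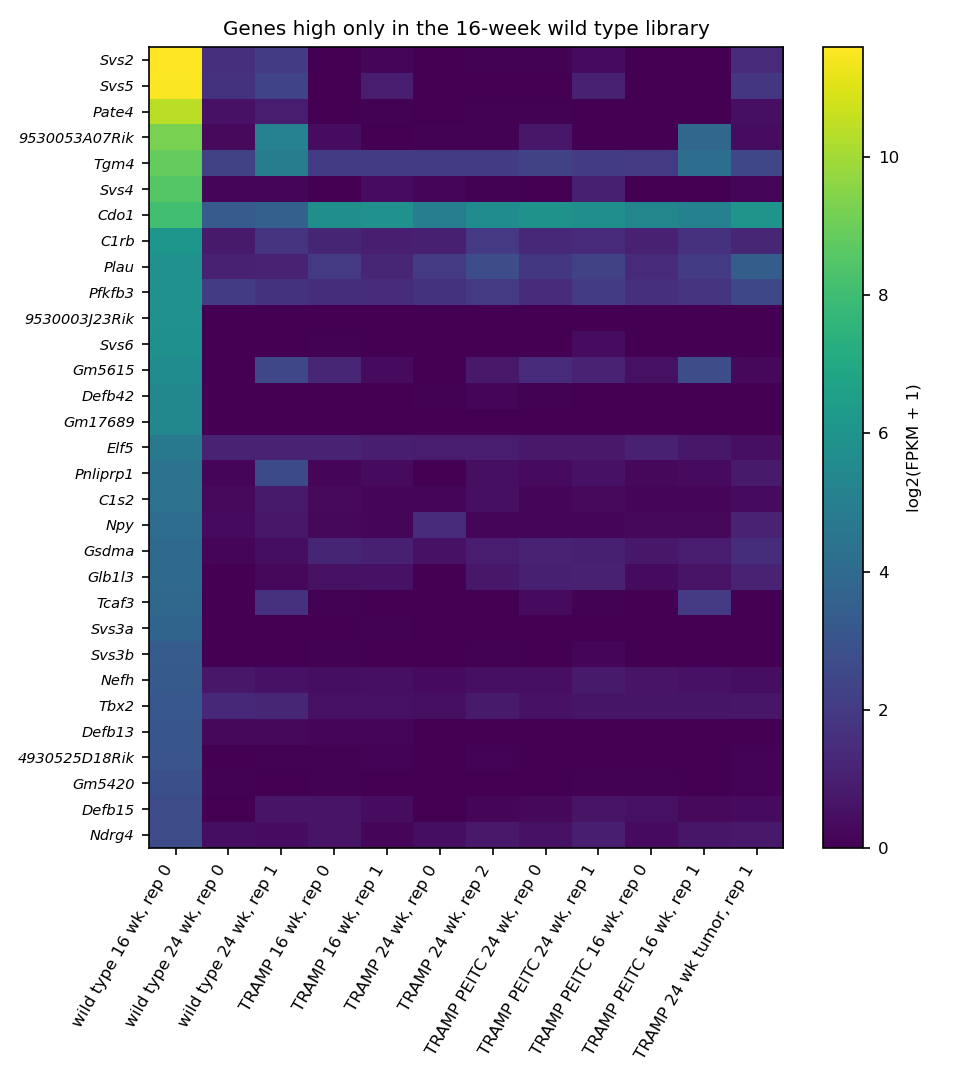
Levels, as log2(FPKM + 1), of the 31 genes high only in the 16-week wild type library (rows) in each of the 12 libraries (columns). The 16-week wild type column is filled for every gene, while Svs2, Svs5 and Pate4 are near 0 in both TRAMP columns of 16 weeks.

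In each of these 31 genes the size of the difference at 16 weeks rests on the lone wild type library, and where a gene group described below holds any of them their number is given. The rule asks for a higher level there than in both TRAMP libraries, so it sets the direction in advance. That all 31 were called lower in TRAMP against that library is therefore no separate result. Against the 24-week wild type libraries 4 of the 31 were lower (Pate4, Svs2, Svs5 and Tbx2), 2 were higher (Cdo1 and Gsdma) and 25 were not called. Cdo1 shows the change of sign, with 54.6 and 57.4 FPKM in TRAMP, 267 FPKM in the 16-week wild type library and 9.09 and 10.8 FPKM in the 24-week ones. Of the listed markers of seminal vesicle and coagulating gland, 8 of the 11 in the files passed the filter on low values, and all 8 are among the 31. Some of the 8, such as Svs6 with at most 0.318 FPKM in any other library, passed only through the 16-week wild type library. That all 8 are among the 31 is therefore in part set by the filter. Summed levels here and below are over all listed genes in the files, tested or not, and for these 11 the sum was 8296 FPKM in the 16-week wild type library against 3.47 and 4.96 FPKM in TRAMP and 9.19 and 37.1 FPKM in wild type at 24 weeks. Near the limit of the rule, Pnliprp1, Cdo1 and Tcaf3 lay just inside, at 4.02, 4.22 and 5.01 times the highest other library, and Bpgm, Fgl1 and Mt3 just outside, at 3.50, 3.13 and 2.89 times.

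TRAMP and wild type prostate differed in many genes at 16 weeks. Levels were compared as log2(FPKM + 1) with limma, a linear model that shares its estimate of the spread across genes, fitted to all 12 libraries; a gene was called where the p-value adjusted by Benjamini-Hochberg over all 13375 genes was under 0.05. The wild type group has 1 library, which is assumed to vary like the groups with replicates. By this test 4490 genes (33.6%) were called, of which 2427 (18.1% of those tested) were higher and 2063 (15.4%) lower in TRAMP. At least 2-fold, 606 were higher and 519 lower, and at least 4-fold, 96 were higher and 109 lower. The median difference of all tested genes was 0.02 on the log2 scale.

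With the 2 wild type libraries of 24 weeks as control for the same TRAMP libraries, 5626 genes (42.1%) were called. Of the genes higher against the 16-week library, 2075 (85.5%) were also higher against the 24-week ones, and of the lower ones 1698 (82.3%) were also lower. Among differences of at least 4-fold, 94 of the 96 higher genes passed with either control, but only 64 of the 109 lower genes did, and 31 of the 109 (28.4%) were the genes high only in the 16-week wild type library. The 4 genes called in opposite directions by the 2 controls were Cd52, Cdo1, Gsdma and S100a14, named here because of these values. The division between higher and lower depended on scaling: 54.1% of called genes were higher with the deposited values, 70.3% when the totals were taken without the top 50 genes, 74.8% when they were taken without the 31 genes, and 77.7% with equal FPKM sums, and these scalings moved the median difference of all genes to 0.12, 0.16 and 0.18.

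**Figure D2:**
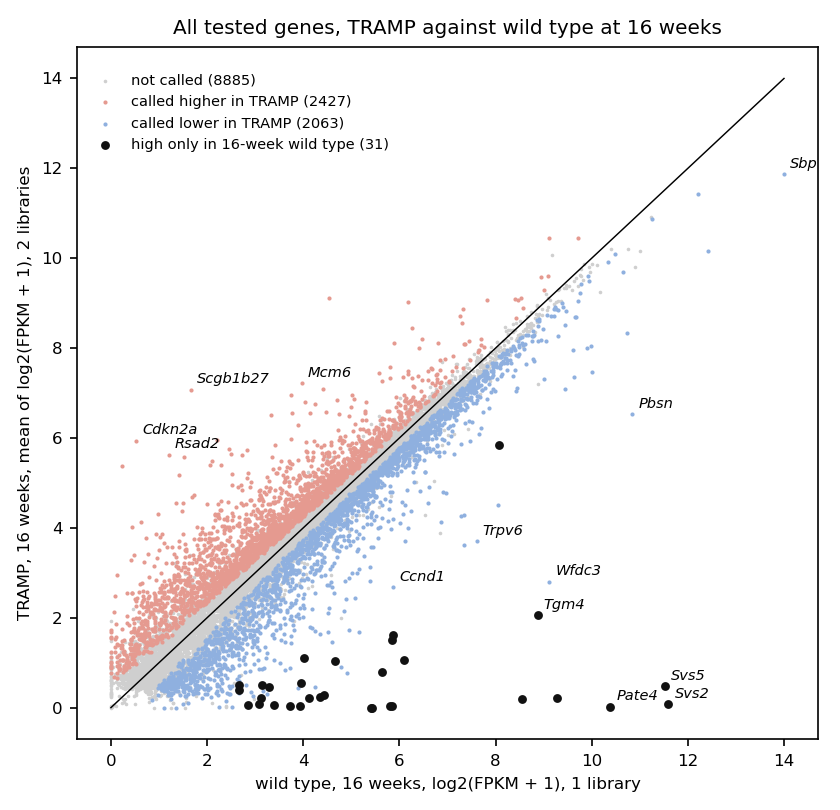
Level of each tested gene in the 16-week wild type library (horizontal axis) and mean of the TRAMP libraries (vertical axis), both as log2(FPKM + 1). Red points are the 2427 genes called higher, blue points genes called lower and grey points genes that were not called. Black points are the 31 genes high only in the wild type library. Most of these lie near the horizontal axis, but Cdo1, at 54.6 and 57.4 FPKM in TRAMP, does not.

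Cdkn2a was among the genes with the greatest log2 rises. It encodes the CDK inhibitor p16INK4a and, in another reading frame, the p53 activator p19ARF, and lies on chromosome 4, 89274471 to 89294653 (GRCm38). Its level was 82.2 and 44.4 FPKM in the TRAMP libraries and 0.433 FPKM in wild type, and 0.404 and 0.555 FPKM in wild type at 24 weeks. Both TRAMP libraries were thus far above all 3 wild type libraries, and replicate 0 had 1.85 times the level of replicate 1. The log2 difference was 5.42 ± 0.34 (SE), with a limma adjusted p = 4.95e-05. The secretoglobin gene Scgb1b27, described below, had 5.41, and with a pseudocount of 5 the difference was 3.59 for Cdkn2a and 4.28 for Scgb1b27. Per gene values do not separate the 2 products.

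The other CDK inhibitors showed smaller differences. Of 7 tested, 5 rose and none was called lower, where 18.1% of all genes were higher. The median log2 difference was 0.84 (1.15 against 24-week wild type). Cdkn2c, encoding p18INK4c, was measured at 39.4 and 31.5 FPKM in the TRAMP libraries and 10.9 FPKM in wild type (log2 difference 1.61, limma adjusted p = 0.000336). Cdkn2b, the neighbour of Cdkn2a that encodes p15INK4b, was at 8.44 and 4.59 against 1.48 FPKM (log2 difference 1.55, limma adjusted p = 0.00631). Cdkn1b, encoding p27KIP1, was at 80.1 and 64.2 against 39.6 FPKM (log2 difference 0.84, limma adjusted p = 0.00211). In these 3 genes each TRAMP library exceeded the wild type one. Cdkn1a, the p53 target that encodes p21, was not called, with 6.75 and 2.97 against 6.59 FPKM (log2 difference -0.45, limma adjusted p = 0.374). Its wild type level lay between the TRAMP replicates, and without replicate 0 it was called lower (limma adjusted p = 0.04201).

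The pocket proteins and the factors they bind differed unevenly. Of the pocket protein genes, Rbl1 (p107) rose, from 3.34 FPKM in wild type to 12.2 and 12.97 FPKM in TRAMP (log2 difference 1.65, limma adjusted p = 6.75e-05). Rb1 was at 8.44 and 8.52 against 7.04 FPKM (log2 difference 0.24, limma adjusted p = 0.262) and Rbl2 (p130) at 21.4 and 22.04 against 23.9 FPKM (log2 difference -0.13, limma adjusted p = 0.307), and neither was called. Among E2F and DP factors 5 of 10 rose and none fell, where 18.1% of all genes were higher. E2f1, an activator that is itself an E2F target, was at 14.7 and 18.8 FPKM in the TRAMP libraries and 5.96 FPKM in wild type (log2 difference 1.34, limma adjusted p = 0.000474). E2f8, a repressor induced in S phase, was at 4.06 and 5.14 against 0.587 FPKM (log2 difference 1.81, limma adjusted p = 0.000233). The DP partner Tfdp1 was at 59.3 and 62.3 against 25.6 FPKM (log2 difference 1.21, limma adjusted p = 6.08e-05). E2f4, the factor most often found with p107 and p130 in resting cells, was at 24.5 and 26.4 against 25.004 FPKM (log2 difference 0.02, limma adjusted p = 0.865).

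Cyclins of G1 moved in opposite directions. Ccne1, cyclin E1, which with Cdk2 starts S phase, rose from 1.89 FPKM in wild type to 9.93 and 8.65 FPKM in TRAMP (log2 difference 1.83, limma adjusted p = 0.000162). Ccne2 stood at 3.09 and 2.89 against 0.489 FPKM (log2 difference 1.42, limma adjusted p = 0.000675). Cdk2 was at 17.7 and 19.3 against 7.01 FPKM (log2 difference 1.28, limma adjusted p = 6.96e-05), and both rose. Ccnd1, cyclin D1, which acts upstream of the pocket proteins, fell: 5.96 and 4.87 FPKM in the TRAMP libraries and 57.5 FPKM in wild type, log2 difference -3.19 ± 0.28 (SE), limma adjusted p = 0.000218. Its wild type level at 24 weeks was lower, 25.5 and 22.4 FPKM, and against that control the log2 difference was -1.96. Ccnd2 (2.14 and 2.27 against 5.66 FPKM, log2 difference -1.05, limma adjusted p = 0.0193) and Ccnd3 (46.7 and 49.6 against 58.3 FPKM, log2 difference -0.27, limma adjusted p = 0.0317) were also called lower, so that all 3 D-type cyclins were lower and both E-type cyclins higher. The call of Ccnd2 was lost without TRAMP replicate 0 (limma adjusted p = 0.0598) or 1 (0.0516). That of Ccnd3 was lost without replicate 0 (0.1003) and under 4 other corrections or scalings, among them totals taken without the most abundant genes (0.165).

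Genes of DNA replication rose together. Of 58 tested, 53 were higher and none lower, where 18.1% of all genes were higher; the median log2 difference was 1.56, and 1.80 against 24-week wild type. The origin recognition and licensing genes, which load the MCM helicase onto DNA in G1, had the greatest median in this list, 2.37, with 13 of 15 higher. Mcm3, an MCM subunit, was measured at 48.4 and 58.6 FPKM in the TRAMP libraries and 4.49 FPKM in wild type, a difference of 11.9-fold in FPKM (log2 difference 3.31 ± 0.12 (SE), limma adjusted p = 6.40e-06). Mcm6, another subunit, was at 136 and 159.6 against 14.6 FPKM (log2 difference 3.25, limma adjusted p = 6.40e-06). Mcm5 was at 43.3 and 55.02 against 4.64 FPKM (log2 difference 3.14, limma adjusted p = 1.72e-05). The loader Cdt1 was at 36.9 and 46.5 against 3.91 FPKM (log2 difference 3.11, limma adjusted p = 1.21e-05). In all 4 genes the TRAMP replicates lay close together and the wild type library far below them. The 2 members that did not pass, Orc4 and Orc3, had 8.99 and 8.65 against 7.805 FPKM and 4.55 and 4.92 against 4.49 FPKM and code for constitutive subunits of the origin recognition complex, whereas Orc1, its cell cycle regulated subunit, was at 2.197 and 2.25 against 0.327 FPKM (log2 difference 1.28, limma adjusted p = 0.00114).

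The 12 genes of helicase activation all rose (median 1.34). Gins2, of the GINS complex that activates the helicase, was at 31.9 and 41.2 against 6.21 FPKM (log2 difference 2.37, limma adjusted p = 5.22e-05). Its partner Cdc45 was at 9.78 and 12.04 against 1.68 FPKM (log2 difference 2.15, limma adjusted p = 0.000151). All 20 genes of polymerases, clamp and ligase rose as well (median 1.64). Pola1, the catalytic subunit of the priming polymerase, was at 12.7 and 14.5 against 1.82 FPKM (log2 difference 2.37, limma adjusted p = 1.21e-05). Pole, of the leading strand polymerase, was at 5.33 and 7.85 against 0.739 FPKM (log2 difference 2.11, limma adjusted p = 0.000222). Pcna, the sliding clamp, was at 169 and 178 against 46.4 FPKM (log2 difference 1.88, limma adjusted p = 1.57e-05). Of the nucleotide supply genes 8 of 11 rose. Rrm1, the large subunit of ribonucleotide reductase, was at 34.8 and 40.9 against 11.5 FPKM (log2 difference 1.64, limma adjusted p = 4.69e-05). Rrm2, its small subunit, was not called against the 16-week library (29.1 and 28.3 against 18.97 FPKM, log2 difference 0.57, limma adjusted p = 0.112) but was against 24-week wild type (log2 difference 1.44, limma adjusted p = 0.000975), where its level was 8.78 and 11.2 FPKM.

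Genes of mitosis rose as well. Of 59 tested, 55 rose and none fell (median log2 difference 1.48), where 18.1% of all genes were higher. Against 24-week wild type 57 rose, with a median of 2.16. Cdk1, the kinase that drives entry into mitosis, was at 22.1 and 24.6 FPKM in the TRAMP libraries and 3.91 FPKM in wild type, and at 1.3003 and 1.32 FPKM in wild type at 24 weeks (log2 difference 2.31, limma adjusted p = 3.30e-05 at 16 weeks). Its partners cyclin B2 (Ccnb2, 18.4 and 19.7 against 4.697 FPKM) and cyclin A2 (Ccna2, 13.5 and 13.8 against 3.22 FPKM) rose by 1.82 and 1.80 on the log2 scale (limma adjusted p = 0.000417 and 0.000890). At the kinetochore, which joins chromosomes to the spindle, 12 of 14 genes rose, led by Ndc80 at 8.84 and 7.797 against 1.21 FPKM (log2 difference 2.07, limma adjusted p = 0.000457). All 15 spindle and cytokinesis genes rose (median 1.49), among them Prc1, which bundles the midzone microtubules, at 20.5 and 21.3 against 5.03 FPKM (log2 difference 1.86, limma adjusted p = 0.000520). All 9 genes of condensin and chromosome structure rose too, among them the proliferation marker Mki67 at 14.3 and 20.7 against 4.09 FPKM (log2 difference 1.84, limma adjusted p = 0.000865). The topoisomerase Top2a was at 30.8 and 36.5 against 14.2 FPKM (log2 difference 1.18, limma adjusted p = 0.00424). The checkpoint and anaphase genes gave 9 of 11 higher, with Ube2c, the ubiquitin-conjugating enzyme of anaphase, at 25.4 and 29.3 against 7.51 FPKM (log2 difference 1.73, limma adjusted p = 0.00166).

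The wild type library itself differed from the 24-week wild type libraries in these genes. Over the 59 mitosis genes the median difference between wild type at 16 and at 24 weeks was 0.64 on the log2 scale, and 7 genes were called higher at 16 weeks, in a comparison in which 89 of all genes (0.665%) were called. Ube2c, for example, stood at 7.51 FPKM in the 16-week and at 1.82 and 1.16 FPKM in the 24-week wild type libraries. Over the 58 replication genes the same median was 0.19. With 1 library at 16 weeks, age and the makeup of that tissue piece cannot be told apart in these values.

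Promoters of genes from these lists are shown because E2F sites and interferon response elements are the sequence elements these programs are known for. Sequences are from RefSeq promoters of GRCm38.p6; each line has the 120 bases that end at the base before the annotated start, 5′ to 3′ on the gene's strand, with matches in capitals. The E2F search used the letters TTTCCCGC, TTTGGCGC, TTTCGCGC and TTTGCCGC on both strands, and matches may overlap. The windows lie at chr1:128359706-128359825, minus strand for Mcm6, at chr19:38930870-38930989, plus strand for Hells, at chr4:108579334-108579453, plus strand for Orc1 and at chr2:157204535-157204654, minus strand for Rbl1.
Mcm6: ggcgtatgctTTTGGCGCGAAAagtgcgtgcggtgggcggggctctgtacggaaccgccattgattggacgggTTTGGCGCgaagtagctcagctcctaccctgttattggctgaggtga
Hells: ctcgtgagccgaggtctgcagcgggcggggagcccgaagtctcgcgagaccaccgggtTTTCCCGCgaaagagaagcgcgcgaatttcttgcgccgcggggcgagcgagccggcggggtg
Orc1: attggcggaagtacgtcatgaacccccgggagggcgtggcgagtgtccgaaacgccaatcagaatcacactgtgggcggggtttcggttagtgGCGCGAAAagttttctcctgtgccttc
Rbl1: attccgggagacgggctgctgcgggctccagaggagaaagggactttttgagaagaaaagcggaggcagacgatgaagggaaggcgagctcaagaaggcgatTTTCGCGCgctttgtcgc
Mcm6 held 3 matches and the others 1 each, at position -62 from the start in Hells, -27 in Orc1 and -18 in Rbl1. Hells, a chromatin remodeller of replicating cells, was at 19.5 and 26.004 FPKM in the TRAMP libraries and 1.83 FPKM in wild type (log2 difference 3.06, limma adjusted p = 1.72e-05). Within 250 bases before to 50 bases after the start, such a match was present in 15 of 48 replication genes with an entry (31.2%), in 6 of 51 mitosis genes (11.8%) and in 2.32% of all 27025 promoters. Among genes higher at least 2-fold it was present in 11.9%, among those lower at least 2-fold in 2.52% and among all tested genes in 4.12%. The cell cycle homology letters TTTGAA, the element of late cell cycle genes, were in 36 of 51 mitosis promoters (70.6%), in 11.8% of tested genes and in 18.1% of all promoters. A match is a run of letters and does not show that a factor was bound.

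**Figure D3:**
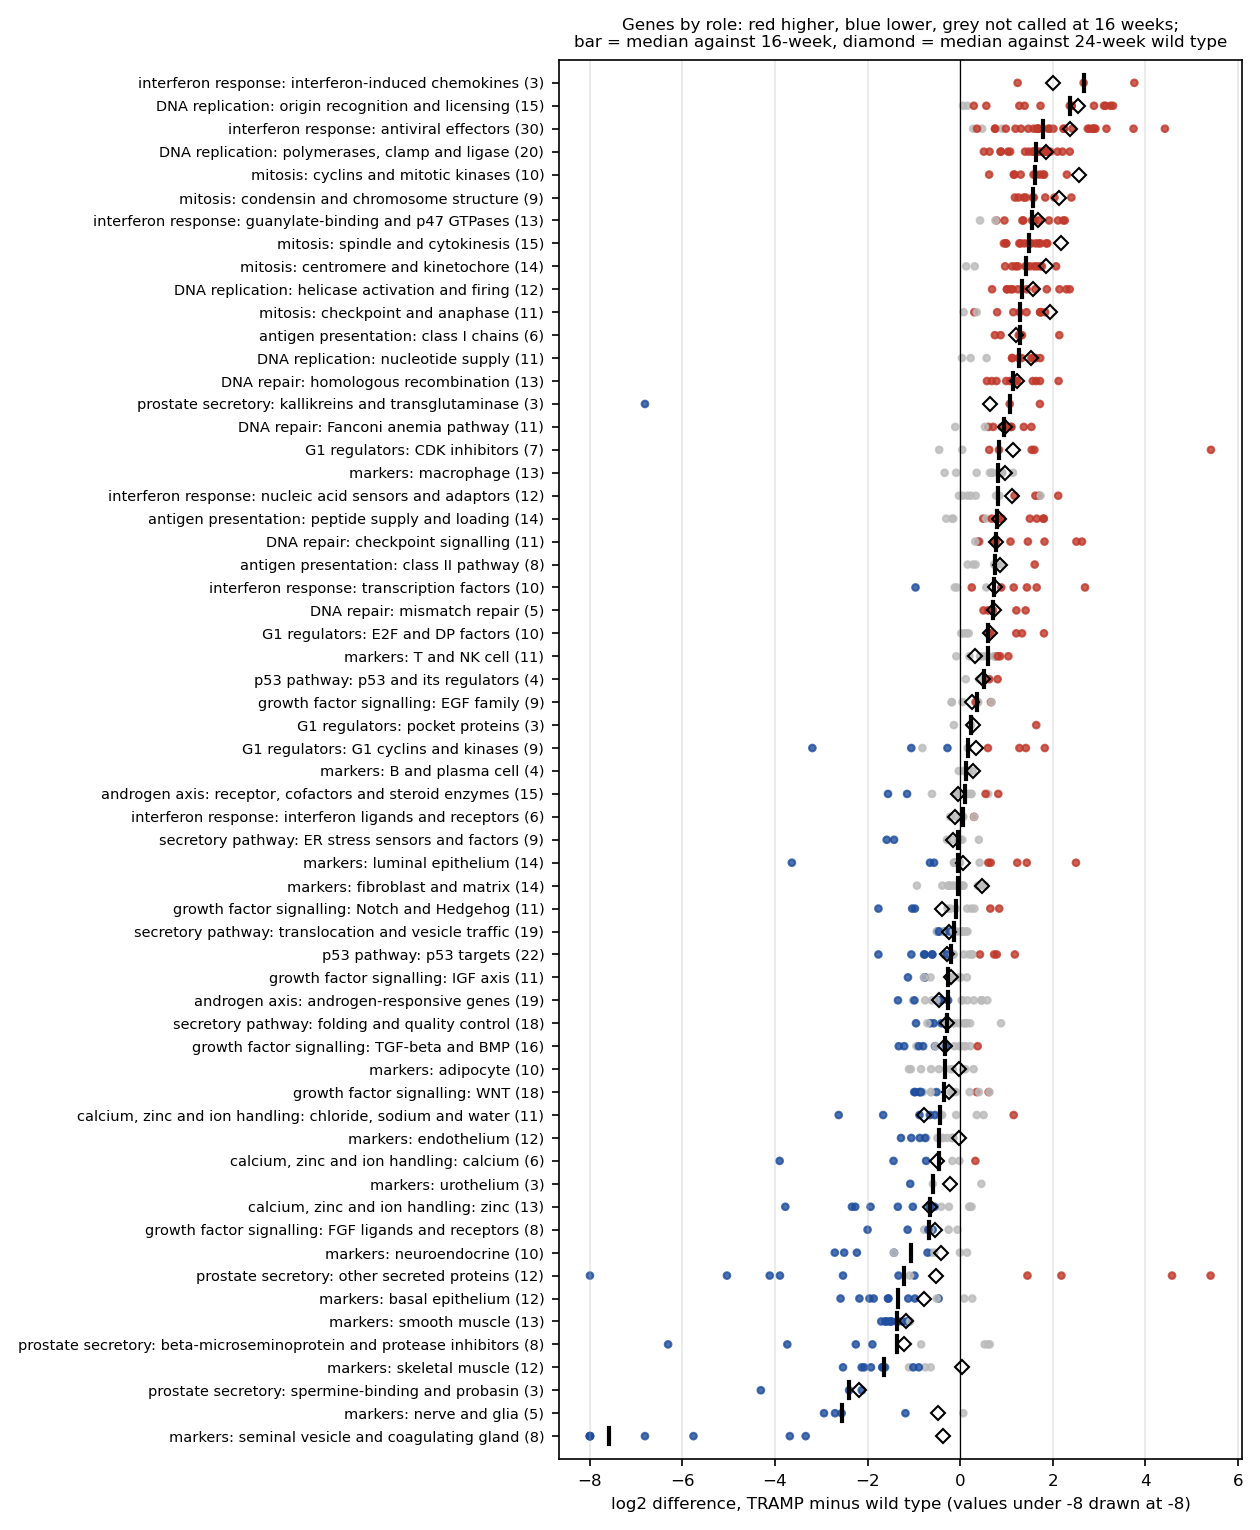
Log2 difference between TRAMP and wild type at 16 weeks for the tested genes of each group, 1 point a gene (red higher, blue lower, grey not called), with a bar at the group's median and a diamond at its median against 24-week wild type; values under -8 are drawn at -8. The licensing genes have a median of 2.37 and the basal cell markers of -1.33.

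Genes of DNA repair that act at replication forks rose with them. Of 40 tested, 35 were higher and none lower (median log2 difference 1.04), where 18.1% of all genes were higher. All 13 homologous recombination genes rose, among them Brca1 at 3.504 and 3.87 FPKM in the TRAMP libraries and 0.578 FPKM in wild type (log2 difference 1.57, limma adjusted p = 0.000206). In the Fanconi anemia pathway, which repairs crosslinks, 9 of 11 rose, and Fanca was at 4.69 and 5.88 against 1.41 FPKM (log2 difference 1.38, limma adjusted p = 0.000310). In checkpoint signalling 8 of 11 rose, with Timeless, a fork protection factor, at 8.301 and 11.1 against 0.709 FPKM (log2 difference 2.63, limma adjusted p = 3.81e-05). The kinase Chek1 was at 8.71 and 12.2 against 0.986 FPKM (log2 difference 2.51, limma adjusted p = 0.000115). The mismatch repair genes all rose by less, with a median of 0.71 over 5 genes.

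Targets of p53 moved in both directions. Trp53, which encodes p53, was at 36.3 and 35.4 FPKM in the TRAMP libraries and 22.8 FPKM in wild type (log2 difference 0.63, limma adjusted p = 0.00298). Mdm2, its ubiquitin ligase and target, was at 22.8 and 25.5 against 22.1 FPKM (log2 difference 0.12, limma adjusted p = 0.4198). Of 22 target genes tested, 4 were higher and 7 lower (median -0.19), where 18.1% of all genes were higher and 15.4% lower. Phlda3, an AKT inhibitor, fell from 21.4 FPKM in wild type to 7.43 and 4.17 FPKM in TRAMP (log2 difference -1.77, limma adjusted p = 0.00427), and the death effector Bax from 91.3 FPKM in wild type to 55.2 and 50.6 FPKM in TRAMP (log2 difference -0.78, limma adjusted p = 0.000345). Ckap2, which also has a role at the mitotic spindle, rose from 2.44 FPKM in wild type to 6.698 and 6.93 FPKM in TRAMP (log2 difference 1.18, limma adjusted p = 0.00401).

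The interferon response was the other large group that was higher in TRAMP. Of 74 tested genes 52 rose and 1 fell, where 18.1% of all genes were higher and 15.4% lower. The median log2 difference was 1.41. The response works in layers: interferons bind receptors on the cell surface, STAT and IRF factors carry the signal to the nucleus, and their targets are antiviral proteins and chemokines. Ligands were mostly under the filter on low values, and of 6 tested ligand and receptor genes 1 was called higher, the receptor chain Ifnar1, at 8.34 and 8.52 against 6.66 FPKM (log2 difference 0.30, limma adjusted p = 0.0403); this call was lost without TRAMP replicate 0 (limma adjusted p = 0.0754) or 1 (0.0977). Among sensors of nucleic acids 4 of 12 rose. Mb21d1, which encodes the DNA sensor cGAS, was at 4.58 and 5.24 FPKM in the TRAMP libraries and 0.357 FPKM in wild type (log2 difference 2.12, limma adjusted p = 4.95e-05). Ddx58, the RNA sensor RIG-I, was at 23.1 and 20.96 against 6.03 FPKM (log2 difference 1.71, limma adjusted p = 0.00417).

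Of the interferon transcription factors 6 of 10 rose. Irf7, the factor that amplifies type I interferon production, was at 156 and 119 FPKM in the TRAMP libraries and 20.1 FPKM in wild type (log2 difference 2.70 ± 0.51 (SE), limma adjusted p = 0.00561), and its 24-week wild type level was 12.3 and 5.16 FPKM. Stat2, a factor of type I interferon signalling, was at 50.99 and 49.7 against 21.999 FPKM (log2 difference 1.16, limma adjusted p = 0.00162). Irf9, its DNA-binding partner, was at 74.7 and 67.3 against 25.4 FPKM (log2 difference 1.44, limma adjusted p = 0.00129), and in both genes the TRAMP libraries were above the wild type library. Irf2, which competes with Irf1 as a repressor of interferon targets, fell, with 57.1 and 54.02 against 109 FPKM (log2 difference -0.96, limma adjusted p = 0.000195) and 115 and 128 FPKM in wild type at 24 weeks.

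Antiviral effectors gave 27 of 30 genes higher and none lower, with a median of 1.80 (2.37 against 24-week wild type). Rsad2, which encodes viperin, was at 59.01 and 39.8 FPKM in the TRAMP libraries and 1.301 FPKM in wild type, and 5.398 and 1.095 FPKM in wild type at 24 weeks (log2 difference 4.43 ± 0.74 (SE), limma adjusted p = 0.00326). Usp18, the protease that removes ISG15, was at 72.05 and 51.7 against 3.61 FPKM (log2 difference 3.75, limma adjusted p = 0.000636). Isg15 itself was at 104 and 77.6 against 9.12 FPKM (log2 difference 3.16, limma adjusted p = 0.00479). Oas2, a 2′-5′ oligoadenylate synthetase, was at 10.8 and 8.56 against 0.395 FPKM (log2 difference 2.93, limma adjusted p = 0.00315). In each of these genes both TRAMP libraries were above all 3 wild type libraries and replicate 0 was above replicate 1. Apol9a and Apol9b, neighbouring interferon-responsive apolipoprotein genes that are close in sequence, so that reads may be divided between them uncertainly, were at 55.9 and 39.3 against 1.85 FPKM and 50.4 and 38.2 against 3.303 FPKM (log2 differences 4.07 and 3.38, limma adjusted p = 0.000857 and 0.000970).

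Of the interferon-induced GTPases that act on pathogen vacuoles 11 of 13 rose (median 1.56), and Irgm2 was at 31.97 and 28.4 against 5.49 FPKM (log2 difference 2.26, limma adjusted p = 0.000262). The 3 chemokine genes tested all rose. Cxcl10, which draws CXCR3-bearing T cells, was at 42.1 and 29.3 FPKM in the TRAMP libraries and 1.66 FPKM in wild type and 5.55 and 1.02 FPKM in wild type at 24 weeks (log2 difference 3.77, limma adjusted p = 0.00326). Ccl5 was at 39.8 and 31.6 against 4.73 FPKM (log2 difference 2.67, limma adjusted p = 0.000546). T and NK cell markers gave 4 of 11 higher, where 18.1% of all genes were higher. Cd3g was at 2.87 and 2.63 against 1.06 FPKM (log2 difference 0.86, limma adjusted p = 0.00796). Its level was 2.42 and 2.29 FPKM in wild type at 24 weeks, and against that control the difference was 0.16 (limma adjusted p = 0.405). Macrophage markers gave 0 of 13 called (median 0.83), with summed levels of 325 and 139 FPKM in TRAMP, 119.9 in the 16-week wild type library and 92.1 and 79.96 FPKM at 24 weeks. Against 24-week wild type 5 of the 13 were higher and none lower (median 0.96), where 42.1% of all genes were called in either direction. The part of leukocytes in the interferon result was not tested.

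Promoters of 4 interferon-responsive genes carried the letters GAAANNGAAA, the core of the interferon-stimulated response element, searched on both strands with overlaps allowed. The windows lie at chr4:156200819-156200938, minus strand for Isg15, at chr19:34640769-34640888, plus strand for Ifit1, at chr15:77411081-77411200, minus strand for Apol9a and at chr11:58214857-58214976, plus strand for Irgm2. Usp18 is named only.
Isg15: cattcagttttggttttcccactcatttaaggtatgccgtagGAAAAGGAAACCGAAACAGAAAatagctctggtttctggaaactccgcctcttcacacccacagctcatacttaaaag
Ifit1: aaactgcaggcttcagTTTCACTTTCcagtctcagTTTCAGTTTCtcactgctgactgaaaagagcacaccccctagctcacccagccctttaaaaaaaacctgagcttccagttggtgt
Apol9a: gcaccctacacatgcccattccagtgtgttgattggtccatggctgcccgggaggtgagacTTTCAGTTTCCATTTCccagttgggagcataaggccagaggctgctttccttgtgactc
Irgm2: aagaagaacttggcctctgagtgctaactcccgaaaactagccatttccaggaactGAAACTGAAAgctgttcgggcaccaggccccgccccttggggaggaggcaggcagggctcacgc
Isg15 held 3 overlapping matches, the first at position -78. The matches began at -104 and -85 in Ifit1, at -59 and -53 in Apol9a and at -64 in Irgm2. Ifit1, an RNA cap-binding effector, was at 71.98 and 53.5 against 12.4 FPKM (log2 difference 2.23, limma adjusted p = 0.0244, and 0.0818 without TRAMP replicate 0). Over the window from 250 bases before to 50 after the start, 10 of 20 antiviral effector genes with an entry had a match. The share was 11.7% of genes higher at least 2-fold, 2.24% of genes lower at least 2-fold, 2.998% of tested genes and 3.49% of all promoters.

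Genes of antigen presentation to CD8 T cells rose with the interferon genes. All 6 class I genes tested were higher (median log2 difference 1.29), where 18.1% of all genes were higher. H2-K1, a classical class I heavy chain, was at 1438 and 1367 FPKM in the TRAMP libraries and 554 FPKM in wild type (log2 difference 1.34, limma adjusted p = 0.000968). B2m, the light chain, was at 1491 and 1326 against 835 FPKM (log2 difference 0.75, limma adjusted p = 0.0146, and 0.05602 without TRAMP replicate 0). H2-Q4, a class I gene of the Q region, was at 119 and 108 against 24.9 FPKM (log2 difference 2.14, limma adjusted p = 6.24e-05). H2-Q5 of the same region was at 19.6 and 17.8 against 0.959 FPKM (log2 difference 3.33, limma adjusted p = 0.000205); class I genes are alike in sequence, and reads may be assigned between them uncertainly. Of the genes that supply peptides 10 of 14 rose, among them the immunoproteasome subunit Psmb8 at 128 and 105 against 32.3 FPKM (log2 difference 1.81, limma adjusted p = 0.000480). The peptide transporter Tap1 was at 50.2 and 43.6 against 15.8 FPKM (log2 difference 1.51, limma adjusted p = 0.000433). Nlrc5, the transactivator of class I genes, was at 3.84 and 3.91 against 0.546 FPKM (log2 difference 1.66, limma adjusted p = 0.000572). Of the class II pathway, which serves CD4 T cells, 1 of 8 genes was called, the protease Ctss at 64.3 and 40.2 against 15.97 FPKM (log2 difference 1.61, limma adjusted p = 0.00935). The invariant chain Cd74 was at 129.7 and 97.97 against 67.2 FPKM (log2 difference 0.74, limma adjusted p = 0.213).

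**Figure D4:**
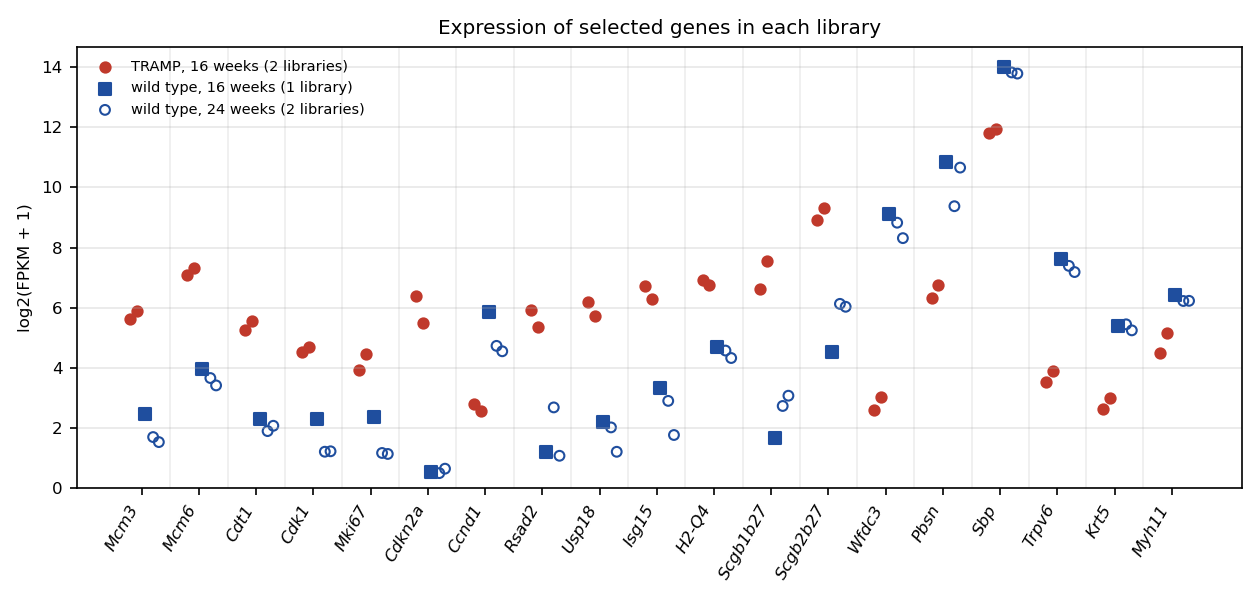
Levels, as log2(FPKM + 1), of 19 genes in the TRAMP libraries of 16 weeks (red dots), the 16-week wild type library (blue square) and the 24-week wild type libraries (open circles). For Cdkn2a, Mcm3 and Rsad2 the red dots lie above all wild type symbols, and for Sbp, Wfdc3 and Krt5 below them.

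Secretory genes of the prostate were called lower in TRAMP more often than higher. Of 26 tested, 15 were lower and 6 higher (median log2 difference -1.61), where 15.4% of all genes were lower and 18.1% higher. Against 24-week wild type 11 were lower and 8 higher (median -0.74). The 26 include 5 of the 31 genes high only in the 16-week wild type library. Without those, 10 of 21 were lower and 6 higher, and the median was -0.99 (-0.77 against 24-week wild type). The summed level of the list was 9309 and 10352 FPKM in TRAMP, 35064 FPKM in wild type and 29063 and 29601 FPKM in wild type at 24 weeks. In bulk tissue, fewer cells of a type and less RNA per cell cannot be told apart. Spermine-binding protein Sbp, with the levels given above, differed by -2.13 ± 0.14 (SE) on the log2 scale (limma adjusted p = 5.74e-05), and its relative Sbpl was at 278 and 372 against 1699 FPKM (log2 difference -2.40, limma adjusted p = 0.000169). Pbsn, probasin, whose promoter drives the transgene, was at 78.6 and 107 FPKM in the TRAMP libraries and 1835 FPKM in wild type and at 664 and 1619.8 FPKM in wild type at 24 weeks (log2 difference -4.31 ± 0.89 (SE), limma adjusted p = 0.00822). Both TRAMP libraries were below all wild type libraries, but the 24-week wild type libraries differed from each other by more than the TRAMP ones. Quantile normalization gives genes of the same rank the same value in every library, and since Sbp ranked first in all 3 libraries it leaves no difference there by construction. Msmb, with the levels given above, was not called (log2 difference -0.84, limma adjusted p = 0.239).

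Of the genes not marked as high only in wild type, a protease inhibitor fell most. Wfdc3, a whey acidic protein domain gene on chromosome 2 (164731180 to 164745931, GRCm38), which also carries the Svs genes, was at 4.98 and 7.16 FPKM in the TRAMP libraries and 554 FPKM in wild type and at 453 and 317 FPKM in wild type at 24 weeks. All 3 wild type libraries were high and both TRAMP libraries low (log2 difference -6.31 ± 0.56 (SE), limma adjusted p = 0.000238). Wfdc2, a related gene, was at 13.5 and 9.28 against 161 FPKM and 87.2 and 53.02 FPKM in wild type at 24 weeks (log2 difference -3.73, limma adjusted p = 0.000386). Spink1, an inhibitor of trypsin, fell from 5458 FPKM in wild type to 916 and 1428 FPKM in TRAMP (log2 difference -2.25, limma adjusted p = 0.00114), and Spink5 from 958 FPKM in wild type to 213 and 309 FPKM in TRAMP (log2 difference -1.90, limma adjusted p = 0.000417). Nupr1, a stress-induced chromatin protein placed among the other secretory genes of the list, was at 253 and 123 against 1025 FPKM (log2 difference -2.53, limma adjusted p = 0.00375).

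Secretoglobins of the androgen-binding protein cluster on chromosome 7 went the other way. Scgb2b27 (34011921 to 34013942) was at 478 and 638 FPKM in the TRAMP libraries and 22.1 FPKM in wild type (log2 difference 4.58 ± 0.21 (SE), limma adjusted p = 1.25e-05), and its neighbour Scgb1b27 (34021483 to 34022881) at 97.2 and 185 FPKM in the TRAMP libraries and 2.17 FPKM in wild type (log2 difference 5.41 ± 0.64 (SE), limma adjusted p = 0.000806). The TRAMP libraries were above the wild type library in both genes, and the differences remained called against 24-week wild type, at 3.03 and 4.18 on the log2 scale. Scgb2b12 was at 36.6 and 46.2 against 3.18 FPKM (log2 difference 3.33, limma adjusted p = 0.000246), but the 24-week wild type libraries had 32.4 and 21.7 FPKM, and against them the difference was 0.61 (limma adjusted p = 0.0777). The cluster holds many near-identical copies, so reads may be divided between its members uncertainly. Among other secreted products, Apof, a lipoprotein-associated protein, was at 338 and 363 against 76.1 FPKM (log2 difference 2.19, limma adjusted p = 0.000190). Mmp7, the epithelial metalloprotease matrilysin, was at 529 and 331 against 152 FPKM (log2 difference 1.46, limma adjusted p = 0.0272), with 26.1 and 26.2 FPKM in wild type at 24 weeks. The call of Mmp7 was lost without TRAMP replicate 0 (limma adjusted p = 0.0964).

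Few androgen signalling genes outside the secreted products were called higher, and more were called lower. Of 33 tested, 2 were higher and 8 lower, where 18.1% of all genes were higher and 15.4% lower. Foxa1, a pioneer factor of luminal cells, was at 205 and 219 FPKM in the TRAMP libraries and 209.7 FPKM in wild type (log2 difference 0.02, limma adjusted p = 0.907), with the wild type value between the TRAMP replicates. Of 15 pathway, cofactor and steroid enzyme genes 2 were higher and 2 lower, and of 19 androgen-responsive genes none was higher and 6 were lower (median -0.26). Ndrg1, an androgen-responsive gene, was at 3.27 and 2.33 against 8.57 FPKM (log2 difference -1.34, limma adjusted p = 0.0113). The steroid 5-alpha reductase Srd5a1 was at 4.71 and 5.15 against 2.35 FPKM (log2 difference 0.83, limma adjusted p = 0.00188). Srd5a2, of the same enzyme family, was at 4.55 and 4.01 against 10.7 FPKM (log2 difference -1.15, limma adjusted p = 0.0256), and its call was lost without TRAMP replicate 0 (0.05597) or 1 (0.0812). The androgen response letters AGNACANNNTGTNCT were in 17 of all 27025 promoters and in none of the 19 secretory genes with an entry, which says only that these letters are not within those windows.

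The machinery that folds and exports secreted proteins was called in more genes at 24 than at 16 weeks. Of 46 genes tested none was higher and 13 were lower at 16 weeks (median -0.16, or 0.03 with equal FPKM sums). Of all genes 18.1% were higher and 15.4% lower at that age. At 24 weeks 6014 of all 13375 tested genes (45%) were called, 2943 of them lower. At that age 38 of the 46 were lower (median -0.52). The test of the difference between the ages called none of these genes. Creb3l4, a secretory transcription factor of the prostate, was at 17.4 and 17.6 against 48.7 FPKM (log2 difference -1.43, limma adjusted p = 0.00124). Creld2, an endoplasmic reticulum chaperone, was at 104 and 128 against 224 FPKM (log2 difference -0.95, limma adjusted p = 0.00347).

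Of 30 genes of calcium, zinc and ion handling, 16 were lower, 2 higher and 12 not called, where 15.4% of all genes were lower and 18.1% higher. Calcium genes gave 3 lower and 1 higher of 6, and chloride, sodium and water genes 5 lower and 1 higher of 11. Trpv6, the apical calcium channel, was at 10.5 and 13.8 FPKM in the TRAMP libraries and 194 FPKM in wild type and at 167 and 144 FPKM in wild type at 24 weeks (log2 difference -3.90 ± 0.20 (SE), limma adjusted p = 2.28e-05). Zinc genes gave none higher and 8 of 13 lower (median -0.66). The metallothioneins, which bind zinc, fell: Mt1 was at 255 and 271 against 1009.6 FPKM (log2 difference -1.94, limma adjusted p = 0.000144). Mt2 was at 154 and 173 against 788 FPKM (log2 difference -2.27, limma adjusted p = 0.000472). Mt3 was at 0.439 and 0.325 against 17.9 FPKM (log2 difference -3.78, limma adjusted p = 0.00139), with 1.88 and 6.198 FPKM for Mt3 in wild type at 24 weeks. Aqp5, a water channel of glands, was at 4.31 and 4.62 against 32.7 FPKM (log2 difference -2.62, limma adjusted p = 1.21e-05). Kcnk3, a potassium leak channel, was at 15.7 and 30.2 against 266 FPKM with 304 and 379 FPKM in wild type at 24 weeks (log2 difference -3.55, limma adjusted p = 0.000386). In these genes both TRAMP libraries were below every wild type library.

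Markers of basal cells and of smooth muscle were lower. Of basal cell markers 9 of 12 fell and none rose, where 15.4% of all genes were lower. Their median was -1.33 (-0.78 against 24-week wild type, where 9 fell). Krt5, the basal keratin, was at 5.15 and 6.97 FPKM in the TRAMP libraries and 40.97 FPKM in wild type and 42.5 and 36.9 FPKM in wild type at 24 weeks (log2 difference -2.58, limma adjusted p = 0.000364). Trp63, the transcription factor that maintains basal cells, was at 0.731 and 0.883 against 4.32 FPKM (log2 difference -1.56, limma adjusted p = 0.000410). Smooth muscle markers fell in 12 of 13 genes (median -1.36, and -1.17 against 24-week wild type), with summed levels of 373 and 448 FPKM in TRAMP, 1135 FPKM in wild type and 987 and 937 FPKM at 24 weeks. Myh11, the smooth muscle myosin, was at 21.5 and 34.3 against 85.1 FPKM (log2 difference -1.61, limma adjusted p = 0.0261). Acta2, smooth muscle actin, was at 65.6 and 82.1 against 207 FPKM (log2 difference -1.48, limma adjusted p = 0.0126). Without TRAMP replicate 0 the adjusted p from limma was 0.09395 for Myh11 and 0.0505 for Acta2. Fgf7, a ligand made by prostate stroma, was at 0.733 and 0.903 against 2.99 FPKM (log2 difference -1.13, limma adjusted p = 0.00161). Fgf10, another such ligand, was not called, at 0.731 and 0.956 against 1.87 FPKM (log2 difference -0.64, limma adjusted p = 0.0628). Fgfr3 was at 0.461 and 0.636 against 5.18 FPKM (log2 difference -2.0001, limma adjusted p = 9.63e-05).

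Markers of luminal cells were mixed, with 5 of 14 higher and 3 lower, where 18.1% of all genes were higher and 15.4% lower. Of those 3, Elf5 is a gene high only in the 16-week wild type library, with 1.14 and 0.9497 against 24.4 FPKM, and was not called against 24-week wild type (limma adjusted p = 0.5102). The luminal keratins were not called: Krt8 was at 391 and 346 against 403 FPKM (log2 difference -0.13, limma adjusted p = 0.349). Krt18 was at 651 and 634 against 681 FPKM (log2 difference -0.08, limma adjusted p = 0.472), although quantile normalization gave Krt18 a log2 difference of 0.27 (limma adjusted p = 0.0401). Prom1, a membrane protein of apical protrusions, was at 129 and 87.99 FPKM in the TRAMP libraries and 17.9 FPKM in wild type (log2 difference 2.50, limma adjusted p = 0.00101). Both TRAMP libraries exceeded all 3 wild type ones in Prom1. Junction genes showed Epcam at 559 and 518 against 352 FPKM (log2 difference 0.61, limma adjusted p = 0.00366), while the E-cadherin gene Cdh1 was at 230.3 and 210.4 against 203 FPKM (log2 difference 0.11, limma adjusted p = 0.543).

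Neuroendocrine genes, which late TRAMP tumors can express, showed no rise by the test. Of 10 tested none rose and 5 fell, where 18.1% of all genes were higher and 15.4% lower. Against 24-week wild type 2 of the 10 fell. Chga, the granule protein chromogranin A, was at 0.0897 and 0.26 against 0.811 FPKM (log2 difference -0.63, limma adjusted p = 0.693). Syp, synaptophysin, was at 0.4897 and 0.268 against 2.698 FPKM (log2 difference -1.43, limma adjusted p = 0.0468), with 0.684 and 0.781 FPKM in wild type at 24 weeks. The call of Syp was lost without TRAMP replicate 0 (limma adjusted p = 0.0853) or 1 (0.132). Nerve and glial markers moved with them: 4 of 5 fell, with sums of 2.698 and 2.26 FPKM in TRAMP, 29.7 in the 16-week wild type library and 7.97 and 6.98 at 24 weeks. Tubb3, the neuronal tubulin, stood at 6.74 FPKM in the 16-week and at 0.3198 and 0.314 FPKM in the 24-week wild type libraries. Of the skeletal muscle markers, 9 of 12 were lower. Their sums were 28.2 and 45.1 FPKM in TRAMP, 147 in the 16-week library and 57.9 and 55.6 at 24 weeks. Against 24-week wild type 2 fell and the median was 0.04 in place of -1.65. The part of nerve and muscle in the wild type tissue piece was not tested.

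Of 41 chromatin genes 20 were higher and 2 lower, where 18.1% of all genes were higher and 15.4% lower. DNA methylation genes gave 3 of 6 higher and deacetylases and methyltransferases 3 of 13, with none lower in either. Uhrf1, which guides maintenance methylation, was at 15.6 and 26.1 FPKM in the TRAMP libraries and 3.84 FPKM in wild type (log2 difference 2.13, limma adjusted p = 0.000750). The maintenance methyltransferase Dnmt1 was at 22.3 and 32.4 against 8.1003 FPKM (log2 difference 1.62, limma adjusted p = 0.000563). Histone chaperones and HMG proteins rose in 9 of 11 genes (median 1.30), among them both large subunits of the assembly factor CAF-1, Chaf1a at 16.5 and 21.5 against 3.498 FPKM (log2 difference 2.14, limma adjusted p = 6.08e-05). Chaf1b was at 25.3 and 33.7 against 5.23 FPKM (log2 difference 2.28, limma adjusted p = 4.72e-05). Ezh2, the polycomb methyltransferase, was at 30.8 and 31.3 against 13.5 FPKM (log2 difference 1.15, limma adjusted p = 0.000376), with 5 polycomb genes higher and 2 lower of 11.

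The counts of several other groups stand beside the 18.1% of all genes that were higher and the 15.4% that were lower. Glycolysis had 0 higher and 2 lower of 15, and oxidative phosphorylation 0 higher and 7 lower of 22. Glutathione and NRF2 target genes had 1 higher and 9 lower of 20 (median -0.36), and Gsta3, a glutathione transferase, fell from 21.99 FPKM in wild type to 2.496 and 1.95 FPKM in TRAMP (log2 difference -2.84, limma adjusted p = 0.000435). Immediate early genes, which respond within minutes to handling and stress, had 0 higher and 3 lower of 16. Of 25 apoptosis genes 9 were higher and 3 lower. Birc5, which encodes survivin and is also a mitotic protein, was at 5.48 and 6.93 against 1.6001 FPKM (log2 difference 1.46, limma adjusted p = 0.00360). Bcl2 was at 0.999 and 1.17 against 2.86 FPKM (log2 difference -0.89, limma adjusted p = 0.00709).

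The remaining genes with the greatest differences belonged to none of these groups. Fetub, the protease inhibitor fetuin-B, rose from 0.552 FPKM in wild type to 22.995 and 11.97 FPKM in TRAMP (log2 difference 3.51, limma adjusted p = 0.000353), and Obp2a, an odorant-binding lipocalin, from 0.345 FPKM in wild type to 17.4 and 13.4 FPKM in TRAMP (log2 difference 3.60, limma adjusted p = 0.00332). Kel, the Kell blood group endopeptidase, fell from 13.8 FPKM in wild type to 0.295 and 0.417 FPKM in TRAMP (log2 difference -3.45, limma adjusted p = 1.21e-05), the monoglyceride lipase Mgll from 30.1 FPKM in wild type to 2.41 and 2.21 FPKM in TRAMP (log2 difference -3.23, limma adjusted p = 0.00105), and the homeobox gene Nkx2-6 from 23.1 FPKM in wild type to 1.69 and 1.84 FPKM in TRAMP (log2 difference -3.12, limma adjusted p = 1.21e-05). For these 5 genes both TRAMP libraries lay on the same side of all 3 wild type libraries. That was not so for Fgl1, a secreted fibrinogen-like protein, with 2.14 and 2.28 against 34.997 FPKM at 16 weeks but 1.599 and 2.696 FPKM in wild type at 24 weeks (log2 difference -3.49 against the 16-week and 0.05 against the 24-week control). The acute-phase gene Saa3 was at 0.763 and 0.658 against 29.1 FPKM (log2 difference -4.14, limma adjusted p = 0.0469), but the wild type libraries of 24 weeks differed widely, at 29.9 and 0.764 FPKM, the lower of which was level with TRAMP. The call of Saa3 was lost without TRAMP replicate 0 (limma adjusted p = 0.105) or 1 (0.114).

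The TRAMP replicates differed from each other in stromal and fat markers. Replicate 0 was at least 2-fold above replicate 1 in 143 genes and the reverse held for 25. The 24-week wild type replicates were that far apart in 135 genes. Of the genes that far apart between the TRAMP replicates, 7 were called between TRAMP and wild type, where 33.6% of all genes were called. A wide gap between replicates raises the estimated spread and so works against a call, which makes a low count likely in advance. Fibroblast and matrix markers were higher in replicate 0 in 14 of 14 genes, with sums of 411 and 149 FPKM against 308 FPKM in wild type, and none was called. Col3a1, a fibrillar collagen, stood at 66.5 and 9.77 FPKM in replicates 0 and 1, on both sides of the wild type value of 17.6 FPKM. Adipocyte markers were higher in replicate 0 in 10 of 10 genes, with sums of 77.6 and 26.9 FPKM, as for Cfd, adipsin, at 13.3 and 1.32 FPKM. Macrophage markers were higher in replicate 0 in 13 of 13 genes. Car3 (14.6 and 1.01 FPKM), Serpina3n (18.6 and 1.89), Sprr1a (24.8 and 3.23) and Spp1 (7.92 and 0.611) were the other genes highest in replicate 0 relative to replicate 1. In replicate 1, Cpe (14.01 and 51.1 FPKM), Defb10 (1.14 and 4.59), Sln (0.1299 and 1.88), Rmrp (2.21 and 6.86), H2-Q10 (11.7 and 28.7) and Nxpe2 (16.1 and 34.3) were the highest relative to replicate 0. The median difference between the replicates was -0.17 on the log2 scale for replication genes, -0.05 for mitosis genes and 0.15 for interferon genes, where replicate 0 was higher in 65 of 74.

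**Figure D5:**
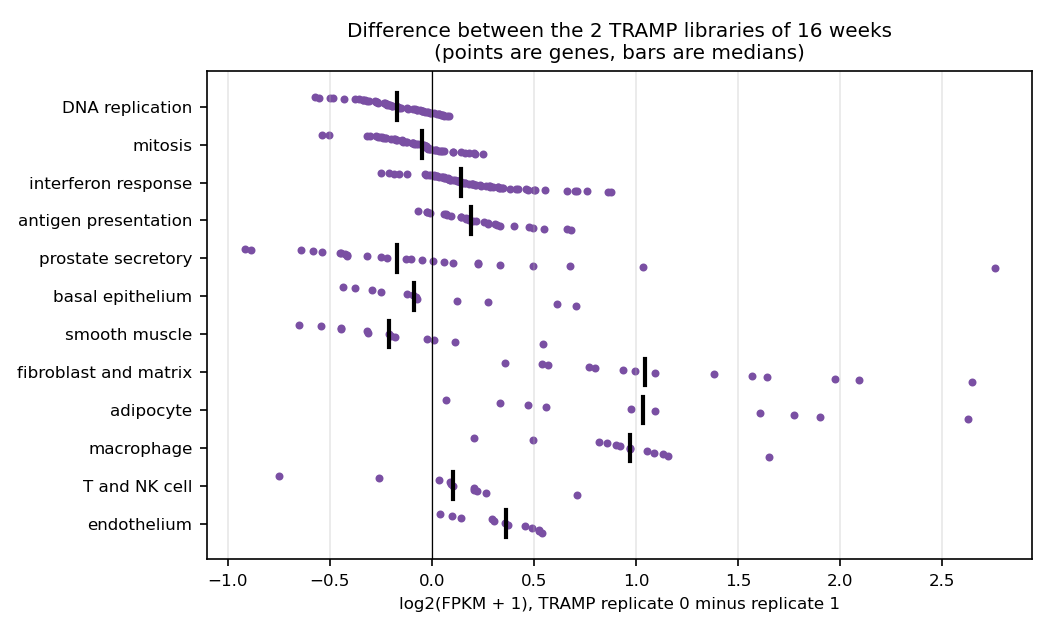
Difference between TRAMP replicate 0 and replicate 1 at 16 weeks, as log2(FPKM + 1), for the tested genes of 12 groups, 1 point a gene, with a bar at the median. The fibroblast (1.05), adipocyte (1.04) and macrophage (0.97) medians lie well above 0 and those of the replication (-0.17) and mitosis (-0.05) genes at or just under it.

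The same contrast at 24 weeks used other libraries for both genotypes. Of all 13375 genes tested, 3071 were higher and 2943 lower in TRAMP at 24 weeks. Of the genes higher at 16 weeks 1828 were also higher at 24 weeks, 75.3% of the 16-week list and 59.5% of the 3071 genes higher at 24 weeks. Of the lower genes 1552 were lower at both ages, 75.2% of the 16-week and 52.7% of the 2943 of the 24-week list. In 94.4% of the genes called at 16 weeks the difference had the same sign at 24 weeks, and 21 genes were called in opposite directions. The share with the same sign among all tested genes was not taken. Cdkn2a rose at both ages, by 5.42 at 16 and 6.44 at 24 weeks, Mcm3 by 3.31 and 4.01, and Rsad2 by 4.43 and 3.81 on the log2 scale. Sbp differed by -2.13 and -2.72 and Trpv6 by -3.90 and -4.08 on the same scale.

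A test of the difference between the ages, the TRAMP effect at 16 minus that at 24 weeks, called 49 genes (0.366%), while 2108 had an unadjusted p under 0.05. Of the 49, 44 had a lower effect at 16 weeks; 25 of these were genes high only in the 16-week wild type library, and 41 were called higher in wild type at 16 than at 24 weeks. Svs2, for example, differed between ages by -9.76 on the log2 scale (limma adjusted p = 2.57e-06). The 5 genes with a higher effect at 16 weeks were Scgb2b12 (3.07, limma adjusted p = 0.0224), Scgb2b27 (2.25, 0.0182), the cytochrome P450 gene Cyp2b10 (1.61, 0.000772), Tbccd1 (0.70, 0.0469) and Erlec1 (0.62, 0.0482). Cyp2b10 was called lower in TRAMP at 16 weeks, so its higher effect was a smaller fall than at 24 weeks. Scgb2b27 was at 22.1 FPKM in wild type at 16 weeks and 68.8 and 64.3 FPKM at 24 weeks, and at 478 and 638 FPKM in TRAMP at 16 weeks and 307 and 372 FPKM at 24 weeks, so that wild type was lower and TRAMP higher at the earlier age. Wild type at 16 and 24 weeks differed in 89 of the 13375 genes (0.665%), 83 of them higher at 16 weeks. Of the 83, 26 were among the 31 genes high only in the 16-week wild type library. The rule for the 31 asks for a higher level there than in both 24-week wild type libraries. It therefore sets the direction of the 26 in advance and favours that of the 25 above. The replication, mitosis and repair lists, with 157 tested genes, held 11 of the 83.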

How the data were processed

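The series holds RNA-seq of total RNA from mouse ventral and dorsolateral prostate. The authors deposited FPKM per gene for each library, and HISAT2, Picard, featureCounts, DESeq2 and mm10 are named in the submitters' processing notes, with no roles. Read counts and depth in reads are unknown, so no interval of counting error is given. From the deposited FPKM, log2(FPKM + 1) was fitted with limma 3.58.1 (R 4.3.3): 12 libraries, 7 group means, 5 residual degrees of freedom, an intensity trend, two-sided tests, Benjamini-Hochberg adjustment over the 13375 genes that averaged 0.5 FPKM or more, threshold 0.05. No count test was used. Summaries and plots used Python 3.11.15 and matplotlib 3.10.9. The fit was tested on simulated data. Positions are GENCODE M21 (GRCm38), which matched 95.7% of symbols; promoters are RefSeq, GRCm38.p6.

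The members and lists were chosen with earlier results of these data known. Named genes were up to 12 called genes each way with the largest log2 difference and no overlap between the groups' libraries (unnamed gene models and genes high only in wild type left out), the 12 most abundant genes high only in wild type, up to 8 each way of the age difference, up to 6 each way between the TRAMP replicates, and for each role the 4 with the largest difference and its defining members. Alternatives were other controls, scalings, filters, pseudocounts, a fit of the compared groups alone and leaving out each replicate. Some members of the lists are not reported here by name.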

Additional observations from a re-analysis of the deposited data

Results flagged for a closer look

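The TRAMP effect, TRAMP minus wild type on the log2 scale, differed between 16 and 24 weeks in 49 genes by limma's test of that difference (adjusted p under 0.05). Of the genes named in the report, 5 had a higher effect at 16 weeks: Scgb2b12 (3.07), Scgb2b27 (2.25), Cyp2b10 (1.61, a smaller fall than at 24 weeks), Tbccd1 (0.70) and Erlec1 (0.62). Those with a lower effect at 16 weeks included the accessory gland transcripts Svs2 (-9.76), Pate4 (-9.65), Svs5 (-9.05), Svs4 (-8.29) and Svs6 (-5.76). The others were 9530003J23Rik (-5.81), Plau (-5.52), C1rb (-5.21), Pfkfb3 (-4.32), Cdo1 (-4.09), Fgl1 (-3.82), Cd52 (-3.66), Elf5 (-3.38), Gsdma (-3.31), S100a14 (-2.05), Tbx2 (-1.97) and Bpgm (-1.84). In 44 of the 49 genes wild type at 16 and 24 weeks also differed by the test, and the lone 16-week wild type library enters all of these values.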

How the results depend on the processing

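No paired analysis was possible, because the labels name no pairs and the wild type group of 16 weeks has only 1 library. The 4490 genes called at 16 weeks became 2198 with only the groups compared in the fit and 1125 with at least 2-fold as a further condition, and 3615 to 3655 without either TRAMP replicate, where the lone library of each group is assumed to vary like the others. Other settings gave 4041 to 6253. The 6014 genes at 24 weeks ranged from 4330 to 6338, and 4200 to 4950 without a replicate. Wild type at 16 against 24 weeks gave 89 genes, 46 at a mean of at least 2 FPKM, 461 without a filter, 27 with only the groups compared and 44 to 51 without a 24-week replicate. The difference between ages gave 49 genes, 27 at a mean of at least 2 FPKM, 297 without a filter, 27 with a pseudocount of 0.1 and 33 to 82 without a replicate, the highest without TRAMP replicate 2 of 24 weeks. The rule for genes high only in wild type gave 31 genes, 47 at a factor of 2 and 21 at 10. Equal FPKM sums were added as a scaling after the data were seen.

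Several group medians changed sign, and not all of them are given here. At a mean of at least 2 FPKM, kallikreins and transglutaminase went from 1.07 to -2.54 and junctions from -0.12 to 0.10. Against 24-week wild type, polycomb went from 0.15 to -0.11 and skeletal muscle from -1.65 to 0.04. With that control immediate early genes went from -0.18 to 0.21, glycolysis from -0.20 to 0.07 and fibroblast and matrix markers from -0.04 to 0.47. The kallikrein and transglutaminase group has only 3 tested genes. Of these 1 is high only in the 16-week wild type library, Tgm4 (log2 difference -6.81), and without it the group's median in the main fit was 1.40. Against 24-week wild type the log2 difference turned to 2.38 for Cdo1, 1.26 for Cd52, 1.04 for S100a14, 0.77 for Gsdma, 0.52 for Plau, 0.0501 for Fgl1, 0.0444 for Svs6, 0.0401 for 9530003J23Rik and -0.13 for Tbccd1. Against all wild type libraries it was 0.85 for Cdo1, 0.53 for S100a14 and 0.20 for Cd52, and quantile normalization gave 0.27 for Krt18. The cause was not tested. Of 169 genes named, leaving out TRAMP replicate 0 ended 12 calls and replicate 1 ended 6. The wild type library, the shallowest, cannot be left out, and its depth limits what can be said of genes at low FPKM.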
